A study of Homo sapiens with 16 samples.

Results

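MYCN, the MYC-family oncogene whose amplification marks the neuroblastoma line SK-N-BE(2), was examined here together with the small protein network it works in. The network was taken by gene symbol as 10 genes: MYCN, MYC, MAX, MXI1, MXD1, MXD3, MXD4, MNT, MLX and MGA. All 10 were found among the 63187 genes of the deposited count table, and all 10 passed the filter on low counts that left 19530 genes for testing. The 16 RNA-seq libraries came from SK-N-BE(2), 4 each of cells labelled WT and of transfected cells that received either HIF-2α at full length (FL) or 1 of 2 altered forms. Those forms are written ΔN-CTAD and Δc-IDR in the study design and are called NCTAD and cIDR in the sample labels, so they are read here as deletions of those regions. All groups grew at 21% oxygen with 10% serum. Each group had 1 library in each of 4 numbered batches. The labels do not say which vector was used, how long after transfection cells were collected, whether WT cells received an empty vector, or whether the 4 libraries of a group were separate cultures. Transfection as such therefore cannot be told apart from HIF-2α in a comparison with WT, and the p-values measure the spread between these libraries, which may be technical.

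MYC and MYCN are transcription factors that bind DNA as heterodimers with MAX, mostly at E-boxes, and drive genes for ribosome production, nucleotide synthesis and cell growth. The MXD proteins (MXI1, MXD1, MXD3 and MXD4), MNT and MGA also pair with MAX, occupy the same sites and repress, so the output depends on which partner MAX has. MLX is the partner of the glucose-sensing factors MondoA and ChREBP and of some MXD proteins. The network touches the oxygen response: HIF-1 is known to induce MXI1, and the HIF proteins are known to alter MYC activity in opposite directions depending on the form. In neuroblastoma with amplified MYCN, MYCN takes the place that MYC has in many other tumours.

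Both pathways have known recognition letters, which were looked for before the start of each gene. The E-box, CACGTG on either strand, is the site that MYC-MAX and MXD-MAX dimers bind, and the core of a hypoxia response element is ACGTG or GCGTG on either strand. An E-box holds ACGTG on both strands, so each E-box also counts as a core. RefSeq starts (GRCh38.p14) matched 9 of the members, with 14 windows covering the 250 bases before each start. An E-box lay in 3 of the 14 windows, those of MXD4, MNT and MLX, against 6.345% of 35116 RefSeq windows of the same length. They are shown because these members carry the network's own binding site close to a start, at 238 bases before the start in MXD4 (chr4:2262330-2262359, minus strand), 193 in MNT (chr17:2401236-2401265, minus strand) and 50 in MLX (chr17:42567038-42567067, plus strand). Capitals mark the E-box.
MXD4: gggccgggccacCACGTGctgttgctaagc
MNT: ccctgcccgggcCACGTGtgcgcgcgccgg
MLX: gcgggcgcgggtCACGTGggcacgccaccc

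MXI1 is shown in full because edgeR called no other member higher in batch 2, where hypoxia markers were also high. Its 3 RefSeq starts on chromosome 10, plus strand, have the windows chr10:110207355-110207604, chr10:110209981-110210230 and chr10:110225746-110225995. Capitals mark hypoxia response cores. The first window held none, the middle one held GCGTG 127 bases before the start and ACGTG on the opposite strand 113 bases before it (read here as CACGT), and the last held GCGTG 131 bases before the start.
MXI1 first start: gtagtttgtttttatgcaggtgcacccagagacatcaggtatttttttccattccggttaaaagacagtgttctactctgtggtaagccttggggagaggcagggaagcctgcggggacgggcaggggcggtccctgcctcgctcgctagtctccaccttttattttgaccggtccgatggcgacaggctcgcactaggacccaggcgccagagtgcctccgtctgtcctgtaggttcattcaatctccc
MXI1 middle start: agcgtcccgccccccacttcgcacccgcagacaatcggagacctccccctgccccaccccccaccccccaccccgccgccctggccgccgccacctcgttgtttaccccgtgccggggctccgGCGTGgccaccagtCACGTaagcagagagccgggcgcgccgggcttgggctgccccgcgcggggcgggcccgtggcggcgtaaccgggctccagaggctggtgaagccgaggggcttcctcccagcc
MXI1 last start: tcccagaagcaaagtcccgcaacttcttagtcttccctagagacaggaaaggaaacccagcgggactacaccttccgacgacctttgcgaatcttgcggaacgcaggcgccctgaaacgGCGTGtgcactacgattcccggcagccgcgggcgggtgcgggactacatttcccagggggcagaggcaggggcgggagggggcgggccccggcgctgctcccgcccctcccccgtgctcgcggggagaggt
A core of either spelling was present in 43.21% of all RefSeq windows and in 9 of the 14 windows of the members. Those 9 windows belong to 7 members, among them MAX, MLX and MGA, which fell in batch 2, so the letters do not set MXI1 apart. MXD1, which also fell, had none. The MYCN window (chr2:15940300-15940549, plus strand) held neither an E-box nor a core. These are matches of letters and not evidence of binding.

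Library totals ranged from 38572700 to 56065800 estimated counts. EPAS1, the gene of HIF-2α, was read to check the labels: it stood at 13.0 to 28.1 CPM (a count scaled to the size of its library, with sizes adjusted by TMM) in WT and at 1320 to 5852 CPM in the transfected libraries, with no overlap. Adrenergic neuroblastoma markers were present throughout, for example PHOX2A at 462 to 582 CPM and HAND2 at 542 to 850 CPM. PTPRC, CD3E, HBB, PECAM1 and CDH1, which define blood, endothelial and epithelial cells, stayed between 0 and 0.125 CPM. Other markers of such cells were not at 0: KRT19 was at 6.46 to 10.4 CPM, KRT8 reached 1.90, VWF 1.51 and CD68 0.615 CPM, and the mesenchymal markers PDGFRB and LUM were at 63.02 to 133.8 CPM and 15.5 to 48.3 CPM. Batch 2 stood apart from the other batches: 10521 of 19530 genes (53.9%) passed an adjusted p under 0.05 there. In the group comparisons, made without a batch term, 2 genes were called in FL, 5 in NCTAD and 2 in cIDR against WT. With batch as a term the counts were 20, 89 and 95.

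**Figure D1:**
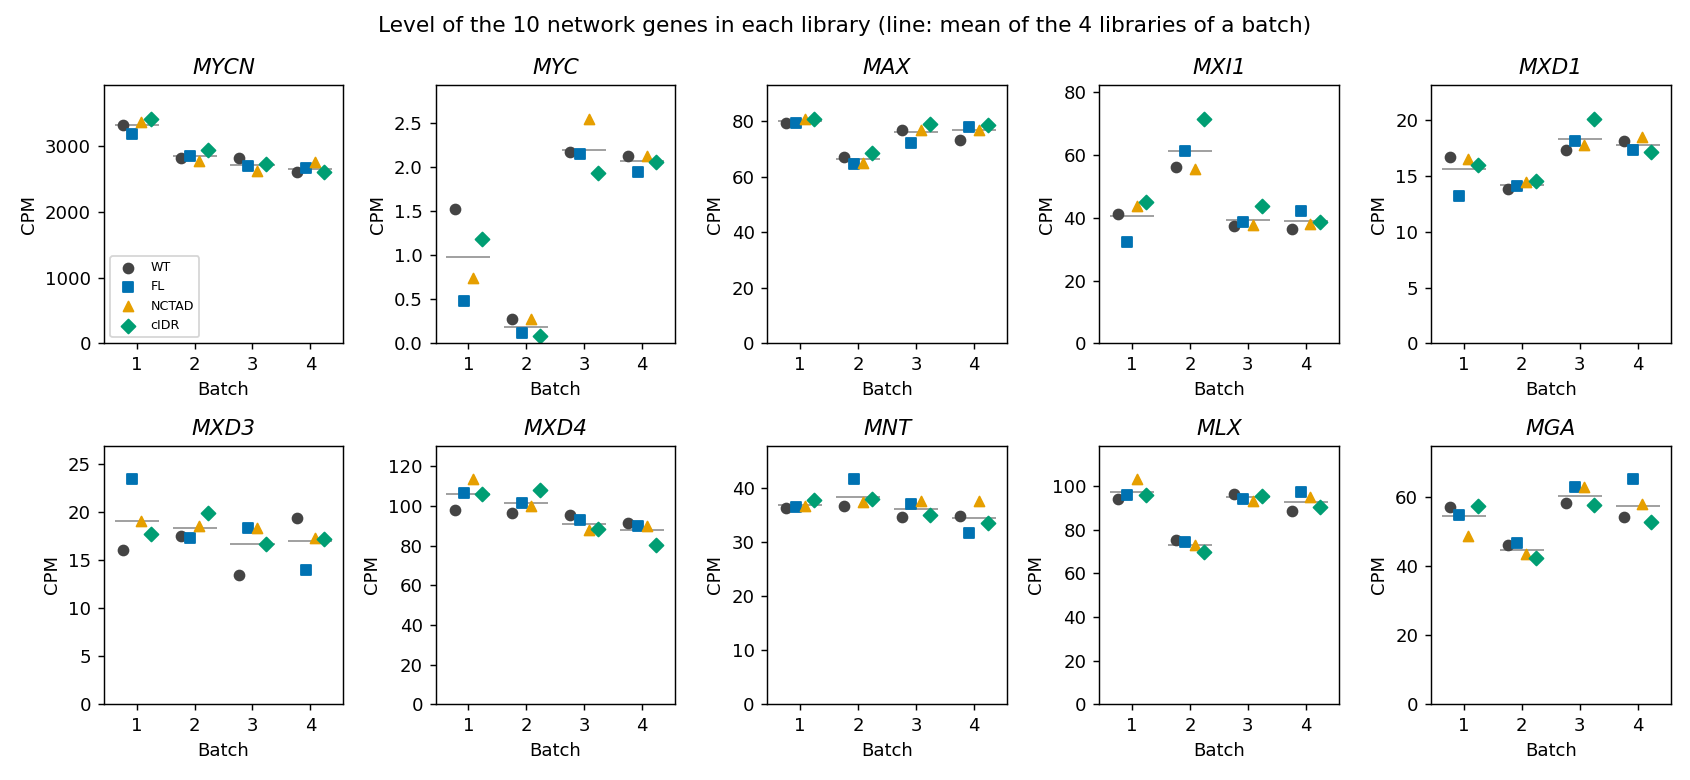
CPM (y axis, from 0) of the 10 network genes in each library, by batch (x axis), with a symbol for each group and a grey line at the mean of the 4 libraries of a batch. Points group by batch rather than by symbol: MYC is lowest and MXI1 highest in batch 2, and MYCN is highest in batch 1.

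MYCN was by far the most abundant member on a per-length scale. In TPM, a depth-scaled level that also divides by transcript length, it averaged 1980 ± 167 (SD over 16 libraries), ranging from 1778 to 2347, and ranked between 56 and 80 among all genes. It made up 86.8 to 89.9% of the summed TPM of the network and stood 23.6 to 34.2 times above MAX, the partner that MYCN needs to bind DNA. The order of mean TPM after MYCN was MAX at 71.4 ± 5.59, MLX at 65.3 ± 6.70, MXD4 at 42.7 ± 3.53, MXI1 at 34.6 ± 10.0 and MXD3 at 23.9 ± 2.99. MNT at 15.8 ± 2.13, MGA at 9.47 ± 1.78, MXD1 at 4.29 ± 0.60 and MYC at 0.906 ± 0.606 closed the list. Ranges over the 16 libraries did not overlap between MYCN and MAX, between MLX and MXD4, between MGA and MXD1, or between MXD1 and MYC. Each other pair of neighbours in that order overlapped. These are RNA levels and say nothing of protein.

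No network gene passed the threshold in a comparison of the HIF-2α forms. MYCN (ENSG00000134323.13; chr2:15940550-15947004, plus strand, RefSeq GRCh38.p14) was at 3307, 2817, 2808 and 2594 CPM in WT and at 3173, 2850, 2691 and 2661 CPM in FL, batches 1 to 4. In NCTAD it was at 3362, 2762, 2613 and 2757 CPM and in cIDR at 3411, 2942, 2722 and 2598 CPM. The 4 groups overlapped fully, and in every group batch 1 was the highest. The log2 fold change ± SE of MYCN against WT was −0.02 ± 0.11 for FL, −0.00 ± 0.11 for NCTAD and 0.02 ± 0.11 for cIDR (edgeR quasi-likelihood test, adjusted p 1, 1 and 1.00). With batch as a replicate block the SE fell to 0.05 and the differences were −0.02, −0.00 and 0.02 (edgeR adjusted p 0.97, 1.00 and 1.00). Within single batches, the construct minus WT difference of log2 CPM ran from −0.10 to 0.09.

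MAX (ENSG00000125952.21; chr14:65006101-65102695, minus strand), the shared partner, showed the same pattern across groups. It was at 79.4, 67.1, 76.8 and 73.3 CPM in WT, 79.4, 64.8, 72.04 and 77.9 CPM in FL, 80.9, 64.8, 76.8 and 76.7 CPM in NCTAD and 80.7, 68.5, 79.0 and 78.7 CPM in cIDR, batches 1 to 4. Groups overlapped, and batch 2 was the lowest library of each. Against WT, MAX gave log2 differences of −0.01 ± 0.09 (FL), 0.01 ± 0.09 (NCTAD) and 0.05 ± 0.09 (cIDR) (edgeR adjusted p 1, 1 and 1.00). With the block the SE was 0.04 and no call was made (adjusted p 0.97, 1.00 and 1.00). The cIDR library was above WT in 4 of 4 batches, by 0.02 to 0.10.

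In the fit with batch as a replicate block, MXI1 (ENSG00000119950.21; chr10:110207605-110287365, plus strand), a MAX-binding repressor, came nearest to a difference between groups. It was at 41.0, 56.2, 37.3 and 36.3 CPM in WT and at 45.0, 71.4, 43.6 and 38.7 CPM in cIDR, batches 1 to 4. FL had 32.4, 61.2, 38.6 and 42.2 CPM, and NCTAD had 43.6, 55.3, 37.8 and 38.1 CPM. Group ranges overlapped, with and without batch 2, which was the highest library of each group. Within batches, cIDR was above WT in each of the 4 batches, by 0.13, 0.35, 0.22 and 0.09 on the log2 scale. The cIDR to WT difference was 0.22 ± 0.22 without the block (edgeR adjusted p 1.00) and 0.20 ± 0.09 with it (unadjusted p 0.0335, adjusted p 0.868). It was not called. Without cIDR replicate 2 the fit without the block gave −0.01, but that fit keeps the high WT library of batch 2 while dropping its cIDR counterpart, and the other 3 batches each had cIDR above WT. FL and NCTAD differed from WT by 0.03 ± 0.22 each (edgeR adjusted p 1 for both).

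Over the 10 members and 6 comparisons (each form against WT and the forms against each other), 0 of 60 tests were called by edgeR without the block and 0 of 60 with it. At an unadjusted p under 0.05 the counts were 0 and 1, the 1 being MXI1 in cIDR against WT with the block. DESeq2 and limma on log2(TPM + 1) also called 0. So did all 138 alternative results, each being 1 alternative fit in 1 of the 6 comparisons. The alternatives included each left-out library and a fit without batch 2. The share of all tested genes called was low too. Without the block, FL against WT had 0.0102% called, NCTAD 0.0256% and cIDR 0.0102%, with 0% in NCTAD against FL, cIDR against FL and cIDR against NCTAD. With the block it was 0.102%, 0.456% and 0.486% against WT, and 0%, 0.0307% and 0.00512% between forms. The count of 0 therefore does not set the network apart from other genes. Leaving out MYC, the largest absolute difference of any member in any comparison was 0.22 without the block. Over the 60 pairs of member and comparison, 8 had one sign in all 4 batches, 6 of them higher and 2 lower. Over all tested genes 12.3% of such pairs had one sign, so the members were close to the background, and the runs of one sign given for MAX, MXI1 and MYC are descriptions only. The 3 comparisons with WT share the same 4 WT libraries.

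**Figure D2:**
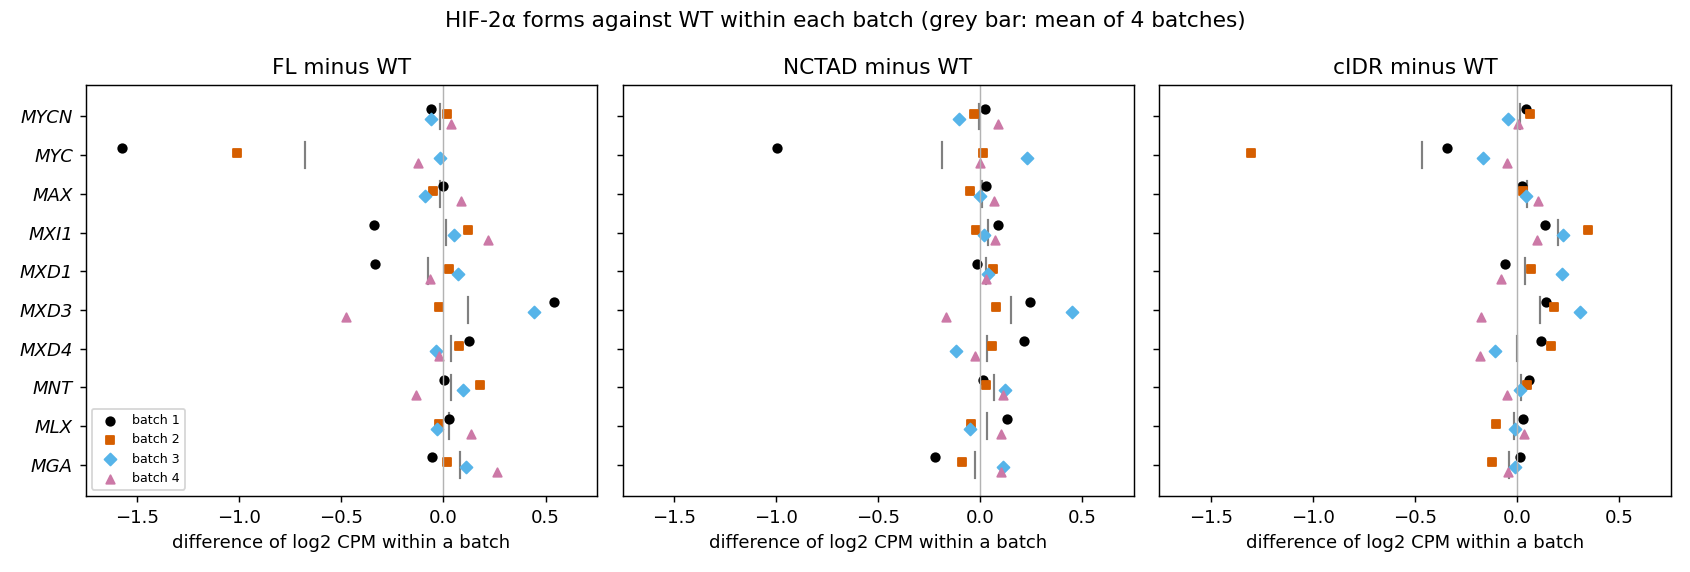
Difference of log2 CPM between each HIF-2α form and WT of the same batch (x axis) for the 10 network genes (y axis), with a symbol for each batch and a grey bar at the mean of the 4 batches. MYCN and MAX lie within 0.11 of 0, MXI1 is above 0 in all batches for cIDR only, and MYC, which had few counts, spreads widest.

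MYC (ENSG00000136997.22) was nearly silent next to its paralogue and was the member that varied most. Batches 3 and 4 gave 90 to 141 counts per library, batch 1 gave 20 to 73 and batch 2 gave 5 to 15. In batches 1 to 4 that made 1.52, 0.279, 2.17 and 2.13 CPM in WT and 0.485, 0.117, 2.15 and 1.95 CPM in FL. NCTAD had 0.743, 0.283, 2.55 and 2.13 CPM, and cIDR had 1.19, 0.0880, 1.93 and 2.05 CPM. Batch 2 was the lowest library of every group and did not overlap the others. Within batch 1 the libraries ran from 0.485 (FL) to 1.52 (WT), a wider spread than within batch 3 or 4. Summed over the 4 libraries of a batch, MYC had 169 counts in batch 1 (0.966 CPM without TMM scaling, exact Poisson 95% interval 0.826 to 1.12), 40 in batch 2 (0.197, interval 0.140 to 0.268), 424 in batch 3 (2.197, interval 1.99 to 2.42) and 385 in batch 4 (2.07, interval 1.87 to 2.29). The intervals cover counting error only. Those of batches 3 and 4 overlapped each other and no other batch. Against WT the fits without the block gave MYC −0.37 ± 0.89 for FL, −0.09 ± 0.88 for NCTAD and −0.21 ± 0.88 for cIDR (edgeR adjusted p 1, 1 and 1.00). Fits with the block gave MYC values of −0.61 ± 0.30 for FL, −0.21 ± 0.29 for NCTAD and −0.38 ± 0.29 for cIDR, none of them called (edgeR adjusted p 0.92, 1.00 and 1.00). FL was below WT of the same batch in 4 of 4 batches, with differences of −1.57, −1.01, −0.01 and −0.12 on the log2 scale, and so was cIDR, with differences of −0.34, −1.30, −0.17 and −0.05. NCTAD was below WT in 2 of 4. The larger of these differences are in batches 1 and 2, where MYC had the fewest counts.

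For 8 of the 10 members, batch carried most of the variation. Batch accounted for 93.7% of the sum of squares of log2 CPM in MLX, 92.3% in MYCN, 90.9% in MYC, 89.0% in MAX and 80.7% in MXI1. It accounted for 78.6% in MGA, 75.4% in MXD1, 73.8% in MXD4, 45.2% in MNT and 18.3% in MXD3, where the median of all tested genes was 53.8%. Group accounted for 0.823 to 9.84% in the members, with a median of 7.85% over all genes. A batch holds 1 library of each group, and the labels do not say what the 4 libraries of a batch shared beyond the number. Its 4 libraries are not separate batches, so the tests of a batch against the mean of the other 3 compare these libraries only.

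In batch 2, MYC, MLX, MGA, MXD1 and MAX fell and MXI1 rose relative to the other batches, while MYCN, MNT, MXD3 and MXD4 were not called. This was 6 of 10 members, where 53.9% of all tested genes were called (27.7% higher and 26.1% lower), so the share of members called was close to the background. In bulk RNA, fewer cells of a type and less RNA per cell cannot be told apart. MYC stood at −3.13 ± 0.30 on the log2 scale against the other batches (edgeR adjusted p 6.81e-07) and was lower in batch 2 in 4 of 4 groups, with differences of −3.72 to −2.34. MXI1 rose by 0.62 ± 0.07 (edgeR adjusted p 2.39e-06), higher in 4 of 4 groups by 0.48 to 0.75. It stood at 55.3 to 71.4 CPM in batch 2 against 32.4 to 45.0 in the other 12 libraries, with no overlap. The share of all tested genes without such overlap is not given here, so a lack of overlap is not read as setting a member apart.

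The partners moved the other way. MLX (ENSG00000108788.12; chr17:42567100-42573203, plus strand) was at 75.3, 74.2, 72.9 and 70.0 CPM in the WT, FL, NCTAD and cIDR libraries of batch 2 and at 88.7 to 103.1 CPM (median 95.4) in the other 12. It did not overlap them and fell by 0.38 ± 0.04 (edgeR adjusted p 1.41e-06). MAX, at 64.8 to 68.5 CPM in batch 2 against 72.04 to 80.9 in the other 12 (median 78.3), also did not overlap and fell by 0.23 ± 0.04 (edgeR adjusted p 7.60e-05). On log2(TPM + 1) the MAX difference was −0.05 and was not called (limma adjusted p 0.615), so the fall of MAX was not called per length.

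Among the repressors, MGA (ENSG00000174197.19; chr15:41621224-41769940, plus strand), a large protein that joins MAX to a Polycomb-type complex, was at 46.2, 46.7, 43.4 and 42.3 CPM in the WT, FL, NCTAD and cIDR libraries of batch 2. The other 12 libraries ran from 48.8 to 65.0 CPM (median 57.6) without overlap, and MGA fell by 0.36 ± 0.05 (edgeR adjusted p 5.38e-05). MXD1 (ENSG00000059728.11; chr2:69915109-69942945, plus strand), a repressor known from differentiating cells, was at 13.9 to 14.5 CPM in batch 2 against 13.2 to 20.1 in the others. Its FL library of batch 1 lay below batch 2, so the groups overlapped. MXD1 fell by 0.27 ± 0.06 (edgeR adjusted p 0.00117), and on log2(TPM + 1) the difference of −0.16 was not called (limma adjusted p 0.139).

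The remaining repressors did not pass the test in batch 2. MXD4 (ENSG00000123933.17; chr4:2247432-2262109, minus strand) was at 96.3 to 107.9 CPM there against 80.6 to 113.4 in the others, a difference of 0.10 ± 0.05 (edgeR adjusted p 0.0927) that was called on log2(TPM + 1), at 0.17 (limma adjusted p 0.0246). MNT (ENSG00000070444.15; chr17:2384073-2401060, minus strand), the widely expressed MAX-binding repressor, was at 36.7 to 41.6 against 31.6 to 37.8 CPM, a difference of 0.10 ± 0.05 (edgeR adjusted p 0.0774). On log2(TPM + 1) the MNT value turned to −0.03. MXD3 (ENSG00000213347.11; chr5:177305499-177312752, minus strand), the MXD member linked to dividing cells, was at 17.3 to 19.9 against 13.5 to 23.4 CPM, a difference of 0.06 ± 0.10 (edgeR adjusted p 0.625). On log2(TPM + 1) the MXD3 value was larger, 0.23 ± 0.09, and was not called (limma adjusted p 0.0523). MYCN itself was at 2762 to 2942 CPM in batch 2, inside the range of 2594 to 3411 of the others, with a difference of −0.02 ± 0.04 (edgeR adjusted p 0.728).

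**Figure D3:**
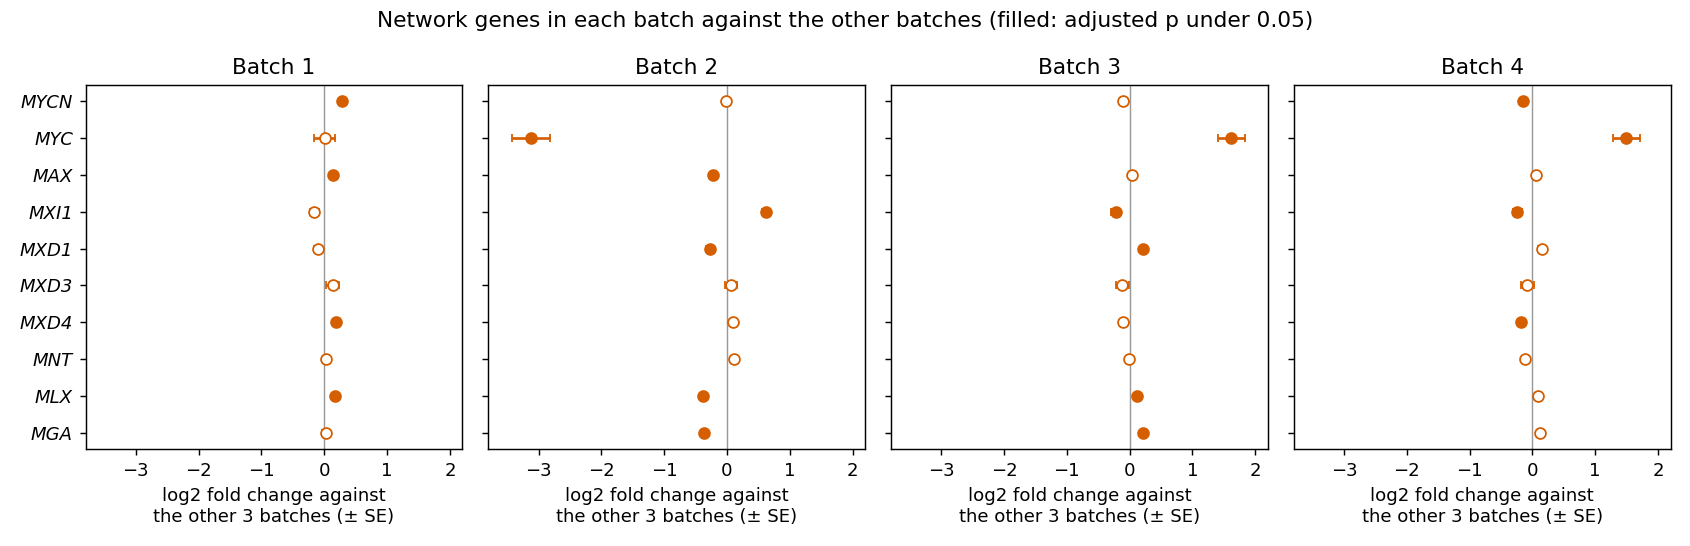
Log2 fold change ± SE of the 10 network genes (y axis) in each batch against the mean of the other 3 (x axis), from edgeR with group and batch as terms; filled points have an adjusted p under 0.05. MYC lies at −3.13 in batch 2 and at 1.62 and 1.497 in batches 3 and 4, MXI1 is above 0 in batch 2 only, and MYCN is furthest above 0 in batch 1.

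Batch 1 was the batch of high MYCN. Its 4 libraries held 3173 to 3411 CPM, against 2594 to 2942 in the other 12, with no overlap, and MYCN rose by 0.28 ± 0.04 (edgeR adjusted p 0.00019). MXD4 (0.18 ± 0.05, adjusted p 0.0132), MLX (0.17 ± 0.04, adjusted p 0.00488) and MAX (0.14 ± 0.03, adjusted p 0.0105) were also called higher, each by edgeR. That made 4 of 10 members called, all higher, where 24.7% of all tested genes were called (14.9% higher and 9.77% lower). The low MLX and MAX of batch 2 enter these values through the mean of the other 3 batches. MLX was at 94.1 to 103.1 CPM in batch 1, which overlapped batch 3 (93.2 to 96.4) and batch 4 (88.7 to 97.3) but not batch 2 (70.0 to 75.3). MAX averaged 80.1 CPM in batch 1 and 66.3, 76.2 and 76.7 CPM in batches 2, 3 and 4. With log2(TPM + 1) limma called 2 of the 10, MYCN higher (0.22 ± 0.05, adjusted p 0.0102) and MXI1 lower (−0.42 ± 0.12, adjusted p 0.0407). MXD4 (0.03 ± 0.06) and MLX (0.06 ± 0.05) were then not called (limma adjusted p 0.731 and 0.444). Per length MAX was not higher in batch 1: it had 69.3 ± 6.79 TPM there (mean ± SD, n = 4) against 69.6 ± 4.80, 73.4 ± 3.29 and 73.4 ± 7.45 TPM in batches 2, 3 and 4. MYC gave 0.01 ± 0.17 in this contrast because its mean over the other 3 batches joins the low batch 2 to the high batches 3 and 4.

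In batch 3 MYC rose by 1.62 ± 0.22 (edgeR adjusted p 0.000236), MGA by 0.22 ± 0.05, MXD1 by 0.22 ± 0.06 and MLX by 0.12 ± 0.04, and MXI1 fell by 0.22 ± 0.07 with an adjusted p of 0.0496, at the threshold. Those 5 members stand beside 16% of all genes called (7.66% higher and 8.31% lower). In batch 4 MYC rose by 1.497 ± 0.22 (edgeR adjusted p 0.000477). MXI1 fell by 0.24 ± 0.07, MXD4 by 0.18 ± 0.05 and MYCN by 0.15 ± 0.04, which made 4 members where 13.4% of all genes were called (6.57% higher and 6.87% lower). Because the batches are compared with one another, other batches enter these contrasts of batches 3 and 4. These include the low MYC, MLX, MGA and MXD1 and the high MXI1 of batch 2, and the high MYCN and MXD4 of batch 1. MLX in batch 3, at 93.2 to 96.4 CPM, overlapped batch 1 (94.1 to 103.1) and batch 4 (88.7 to 97.3) and lay above batch 2 only (70.0 to 75.3). With log2(TPM + 1) limma called 1 of the 10 in each, MYC. Leaving out single libraries, the number called ran from 2 to 6 in batch 3 and from 1 to 4 in batch 4, while in batch 2 it was 6 throughout. In batch 3 it was 2 without replicate 3 of FL, NCTAD or cIDR, and 3 without replicate 1, 3 or 4 of WT, replicate 2 of FL or cIDR, or replicate 4 of NCTAD. In batch 4 it was 1 without replicate 4 of cIDR, and 2 without replicate 4 of WT or NCTAD or replicate 3 of FL.

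The balance of activator and repressor RNA followed the same lines on the per-length scale. The 6 MAX-binding repressors (MXI1, MXD1, MXD3, MXD4, MNT and MGA) summed to 146 to 158 TPM in batch 2 and to 113 to 135 TPM in the other 12 libraries. MXI1 supplied 31.2 to 34.9% of that sum in batch 2 and 16.1 to 27.7% elsewhere. The ratio of MXI1 to MAX was 0.659 to 0.799 in batch 2 and 0.296 to 0.477 elsewhere. The ratio of MYCN to the summed repressors was 12.7 to 13.4 in batch 2, 13.97 to 15.96 in batches 3 and 4, and 17.7 to 18.7 in batch 1, so the 3 sets of libraries did not overlap in TPM. In CPM batch 2 (10.01 to 10.6) overlapped batches 3 and 4 (9.96 to 10.96), and batch 1 was again highest (11.9 to 12.5). No test was made of these ratios.

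Other genes of the family also differed in batch 2. MYCL, the third MYC gene, was at 3.19 to 4.22 CPM in batch 2 and at 0.538 to 1.79 CPM in the other 12 libraries, and rose by 1.90 ± 0.19 (edgeR adjusted p 1.11e-06) where MYC fell. MLXIP, which encodes MondoA, rose by 0.38 ± 0.04, at 126 to 134 CPM against 91.2 to 112 CPM, while its partner MLX fell. TFAP4 (−0.28) and USF1 (−0.23), which also bind E-boxes, fell, and USF2 was not called (0.04), so of 5 tested relatives 2 rose and 2 fell, where 53.9% of all genes were called. TXNIP and ARRDC4, the arrestin-domain genes by which MondoA-MLX activity is usually read, both rose in batch 2, by 1.13 ± 0.07 and 0.67 ± 0.05, where 27.7% of all genes rose. Both fell in batch 1, where 9.77% of all genes fell, with the high batch 2 in the mean of the others. Their sum was 126 to 178 CPM in batch 2, 50.4 to 67.1 CPM in batch 1, 71.7 to 85.9 CPM in batch 3 and 72.8 to 84.0 CPM in batch 4.

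Established MYC targets for making ribosomes, polyamines and nucleotides moved as a list in batches 1 and 2. In batch 1, where MYCN was high, 26 of the 35 tested rose and none fell, where 14.9% of all genes rose and 9.77% fell, with a median log2 fold change of 0.28 (all genes −0.00). NOP2, an rRNA methyltransferase (0.45 ± 0.03), and NOP16, a nucleolar protein (0.49 ± 0.04), were among them, with SRM, spermidine synthase, and RRP9 at 0.42 ± 0.04 each. In batch 2, where MYCN was not called, 29 of 35 fell and 2 rose, where 26.1% of all genes fell and 27.7% rose, with a median of −0.33 (all genes 0.03). NOP2 fell by 0.79 ± 0.04, RRS1 by 0.75 ± 0.05, TYMS, thymidylate synthase, by 0.70 ± 0.05 and NOP16 by 0.61 ± 0.05. FBL and IMPDH2 rose by 0.20 each. The contrasts of batches 1 and 2 are not independent, since each has the other batch in its comparator. The fall in batch 2 therefore enters the rises given for batch 1. In batches 3 and 4 the list had 4 higher and 2 lower, and 4 higher and 1 lower, with medians of 0.02 and 0.06, counts near the 16% and 13.4% of all genes called in those batches. Summed, the 35 genes gave 9964 to 11443 CPM in batch 1, 8212 to 8493 CPM in batch 2 and 8837 to 9918 CPM in batches 3 and 4.

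Targets for growth, translation, metabolism and the cell cycle had 7 higher and 13 lower of 26 tested in batch 2 and a median of −0.12. Over all genes 27.7% were higher and 26.1% lower, so the 7 higher are close to the background. The largest falls by adjusted p were ID2, the HLH inhibitor that MYCN is known to induce (−1.21 ± 0.04), and TFRC, the transferrin receptor (−1.14 ± 0.08). SHMT2, the mitochondrial serine enzyme (1.01 ± 0.04), and SLC7A5, a leucine carrier (0.94 ± 0.05), rose instead. In batch 1, with 14.9% of all genes higher and 9.77% lower, the list had 12 higher and 4 lower, among them MCM7 (0.33 ± 0.04), CDK4 (0.36 ± 0.04) and E2F1 (0.34 ± 0.04) higher and SHMT2 (−0.28 ± 0.04) lower. In batch 3 it had 3 higher and 9 lower, where 7.66% of all genes were higher and 8.31% lower, with a median of −0.05. In batch 4 it had 4 higher and 5 lower, where 6.57% of all genes were higher and 6.87% lower, with a median of 0.01. The contrasts of batches 1, 3 and 4 each have batch 2 in the mean of the others. SHMT2 was at 402.6 to 484.6 CPM in batch 2 and at 194.5 to 239.1 CPM in all other libraries. The high batch 2 therefore enters its negative value in batch 1.

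Genes that MYC is known to repress were mostly higher in batch 2: 7 of 11 rose and 3 fell, with a median of 0.99. Over all genes 27.7% rose and 26.1% fell, so the 3 that fell are close to the background. SESN2, a stress-induced regulator of growth signalling, rose by 2.13 ± 0.05, CDKN1A, the cell cycle inhibitor p21, by 1.54 ± 0.07 and CCNG2 by 1.14 ± 0.07, while CLU fell by 1.36 ± 0.06. In the other batches the list had 1 higher and 5 lower in batch 1, with a median of −0.30 (all genes 14.9% higher and 9.77% lower), 2 higher and 5 lower in batch 3, with a median of −0.27 (all genes 7.66% and 8.31%), and 2 higher and 4 lower in batch 4, with a median of −0.26 (all genes 6.57% and 6.87%). Each of these contrasts includes the high batch 2 in the mean of the others. NDRG1, whose name records its repression by MYCN, is also a hypoxia marker and is counted in both lists.

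**Figure D4:**
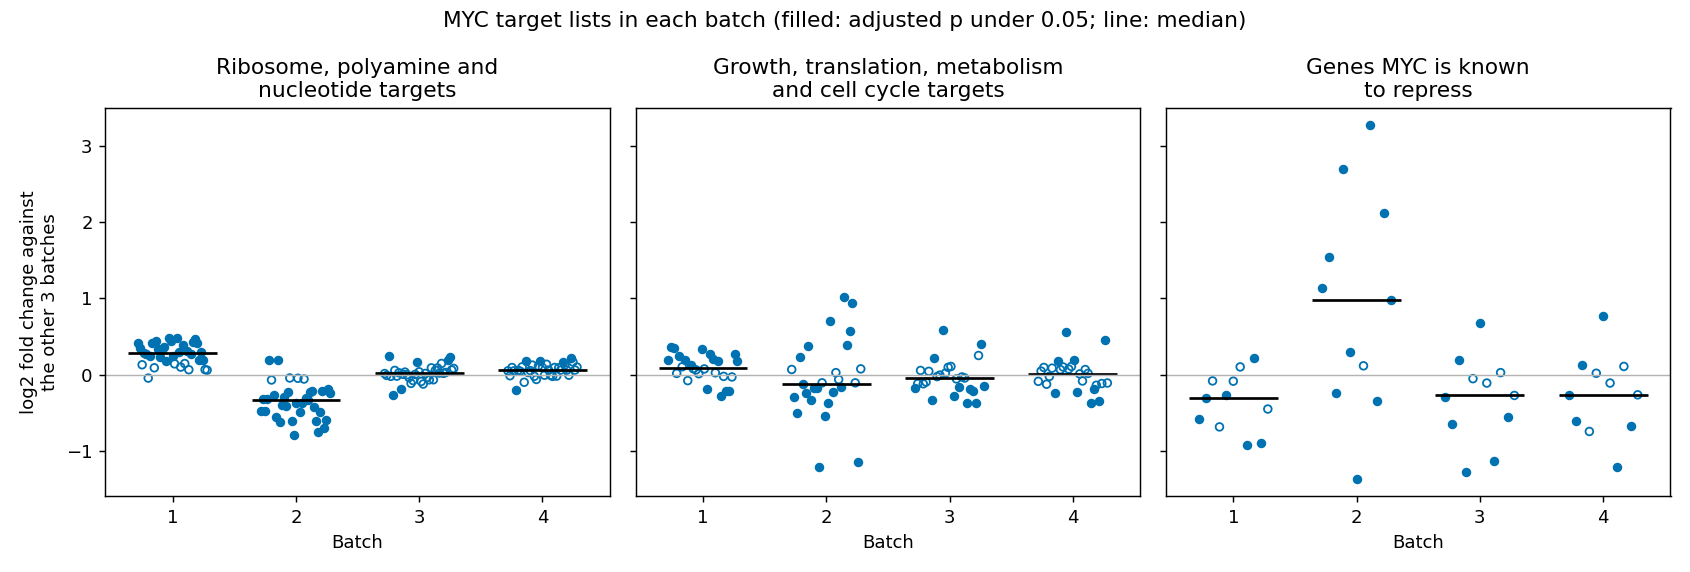
Log2 fold change (y axis) of each tested gene of 3 MYC lists in each batch against the other 3 (x axis), from edgeR; filled points have an adjusted p under 0.05 and the line is the median. The ribosome, polyamine and nucleotide list has its median at 0.28 in batch 1 and at −0.33 in batch 2, and the repressed genes have theirs at 0.99 in batch 2.

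Cofactors fell more often than they rose in batch 2, with 11 lower and 1 higher of 17 and a median of −0.19, beside 26.1% of all genes lower and 27.7% higher. CREBBP, the acetyltransferase CBP, fell by 0.68 ± 0.06, WDR5, a chromatin adaptor that MYC binds, by 0.45 ± 0.04, RUVBL1 by 0.32 ± 0.04 and ACTL6A by 0.24 ± 0.04. SIN3A, the co-repressor that MXD proteins recruit, was the 1 that rose (0.23 ± 0.05). Of 11 regulators of MYC and MYCN protein stability, 3 rose and 5 fell in batch 2, beside 27.7% of all genes called higher and 26.1% lower. USP7 (−0.25 ± 0.03), a deubiquitinase of MYCN, and PLK1 (−0.32 ± 0.05) fell, and SKP2, a ubiquitin ligase subunit, rose (0.29 ± 0.05). Of the genes beside MYCN on 2p24, which can share its amplicon, 4 were tested. DDX1 was the 1 that fell in batch 2 (−0.16 ± 0.04). MYCNOS, the transcript antisense to MYCN, was at 22.9 to 33.03 CPM and rose in batch 1 with MYCN (0.32 ± 0.05, edgeR adjusted p 0.000307). NBAS fell in the same batch (−0.17 ± 0.05, edgeR adjusted p 0.0122), and DDX1 and GACAT3 were not called there (0.09 and 0.14). The library kit keeps strand, but the labels do not say that counting used it, so reads of MYCN and MYCNOS may be shared.

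In the group comparisons none of these MYC lists had a gene called by edgeR without the block. With it, NDRG1 of the repressed list was called in NCTAD (2.03 ± 0.33, adjusted p 0.0104) and cIDR (2.49 ± 0.34, adjusted p 0.00184), and no other gene of the MYC lists was. The ribosome, polyamine and nucleotide list had medians of 0.09, 0.03 and 0.04 in FL, NCTAD and cIDR against WT without the block, beside 0.01, 0.02 and 0.01 for all genes. NCL, the nucleolar protein nucleolin, gave 0.11 ± 0.13, 0.04 ± 0.13 and 0.03 ± 0.13 in the same order, and NPM1, nucleophosmin, gave 0.07 ± 0.09, 0.02 ± 0.09 and 0.01 ± 0.09.

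Some hypoxia markers, by contrast, were called in the comparisons of the HIF-2α forms with WT. Of 18 markers, the fit with the block called 1 for FL, 7 for NCTAD and 10 for cIDR against WT, each of them higher, where 0.102%, 0.456% and 0.486% of all genes were called. Without the block none of the 18 was called. BHLHE40, a HIF-induced repressor, rose by 0.78 ± 0.08, 0.93 ± 0.08 and 1.11 ± 0.08 with the block (edgeR adjusted p 0.000308, 5.92e-05 and 5.79e-06), and VEGFA rose by 1.05 ± 0.11 in NCTAD and 0.89 ± 0.11 in cIDR. MXI1, though a known HIF target, gave 0.02 ± 0.09, 0.04 ± 0.09 and 0.20 ± 0.09 in the same fits without passing the threshold.

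The same markers were higher in batch 2 than in the other batches: 16 of 18 rose and none fell, where 27.7% of all genes rose and 26.1% fell, with a median of 0.88. PFKFB4 (2.24 ± 0.05), ALDOC (1.87 ± 0.06), PDK1 (2.81 ± 0.08) and BNIP3 (1.73 ± 0.06), genes of glycolysis and mitochondrial control, led the list by adjusted p. Their sum was 3765 to 4955 CPM in batch 2 and 2103 to 2913 CPM in the other 12 libraries. The WT library of batch 2, with no added HIF-2α, stood at 3765 CPM, above every transfected library of the other batches, although all cultures are labelled with the same oxygen. MXI1 and MYC were respectively high and low in the libraries where the markers were high; whether the 2 are linked was not tested.

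Markers of other cell types also moved with batch 2. Of 5 tested fibroblast and mesenchymal markers 4 rose (LUM, DCN, PDGFRB and COL1A1), where 27.7% of all genes did, and COL3A1 was not called, at a mean of 0.374 CPM against 0.544 CPM in the others. The list summed to 192 to 204 CPM in batch 2 against 92.3 to 136 in the other batches, while COL1A2, a defining collagen, stayed between 0 and 0.0724 CPM. The endothelial sum was 1.17 to 2.34 CPM against 0.125 to 0.913 (2 of 2 tested rose, VWF and CDH5), with PECAM1 between 0 and 0.0645 CPM. The epithelial sum was 9.48 to 10.5 CPM against 7.22 to 11.3 (2 of 4 rose, KRT8 and KRT18), with CDH1 at 0 in batch 2. The blood cell sum was 0.157 to 0.475 CPM against 0.0626 to 0.633, with 0 of 1 called, HBB at 0 throughout and PTPRC between 0 and 0.0372 CPM. Their part in the batch 2 values of the network was not tested.

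Over the 16 libraries, the genes whose log2 CPM followed MYCN most closely among 12929 compared were DPYSL5 (Pearson r 0.966), DHCR7 (0.964), MVK (0.952), HMGA1 (0.936) and FDFT1 (0.934). DPYSL5 encodes a neuronal protein of the collapsin response family, DHCR7, MVK and FDFT1 encode enzymes of cholesterol synthesis, and HMGA1 encodes a chromatin protein. For MXI1 they were PLEKHA2 (0.976), RNMT (0.974), ANKRD34A (0.962), MAP2K5 (0.960) and OXR1 (0.956). RNMT encodes the mRNA cap methyltransferase and MAP2K5 a kinase. These are the highest values of many, and the libraries share 4 batches. MYCN varied little, with an SD of 0.13 in log2 CPM, while MXI1 had an SD of 0.31 and MYC of 1.47.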

How the data were processed

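RNA-seq of 16 SK-N-BE(2) libraries was analysed from gene tables. Poly(A) RNA (250 ng) was made into stranded libraries with 13 PCR cycles, per the labels' protocols. The authors deposited estimated counts per gene, one merged Salmon table by its name; the submitters' processing notes name Salmon, fastp, STAR, featureCounts and GRCh38 without their roles, so each estimated count is used as deposited. The deposited TPM values are scaled by the authors to transcript length and depth. Column names were matched to samples by the library name in the labels, since they call FL wild type, WT control and NCTAD NTAD; which domain that name means is not given in the sources used here. They also call the line BE2c, a name used for a subclone of SK-N-BE(2), the name in the labels; which of them was grown was not settled here.

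Counts (15.5% not whole) were rounded, filtered with filterByExpr by group and normalized with TMM. For group comparisons, edgeR 4.0.16 in R 4.3.3 (quasi-likelihood F-test) was fitted to the 16 libraries with group as the only term, and each batch was tested with the mean of the other 3 with group and batch as terms. Calls had a Benjamini-Hochberg adjusted p under 0.05 over all 19530 tested genes. The biological coefficient of variation was 0.245, and 0.108 with the block. A prior count of 2 entered log2 CPM. The scripts were tested on simulated data.

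The labels give each replicate number as a batch, so same-numbered libraries share it: their deviations from group means correlated at a mean r of 0.308 (0.0674 to 0.712 over 24 pairs), against −0.0945 for different numbers. No 2 replicates were copies, since the chi-square per degree of freedom was at least 7.24.

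The members, the 14 gene lists, the alternatives and the tests were chosen with earlier results of these data known. Named beside the members were EPAS1, the 5 genes most correlated with MYCN and with MXI1 (mean log2 CPM of at least 1) and, of each list, at most 4 called genes with the smallest adjusted p per comparison, or the 2 most abundant where none was called; others named complete a small count or are markers. Alternatives were median-of-ratios size factors, DESeq2 1.42.0, no filter, limma 3.58.1 on log2(TPM + 1), the block, batch 2 left out and each library left out. Lists were described by counts and medians. Python 3.11.15 and matplotlib 3.10.9 drew the figures.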

Additional observations from a re-analysis of the deposited data

Results flagged for a closer look

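Over 40 sets of 4 libraries (10 genes in 4 groups), 2 had a library whose CPM lay far from the other 3 by Dixon's ratio of gap to range at its 95% critical value. Chance flags about 1 set in 20. Both libraries were from batch 2. The cIDR library held 68.5 CPM of MAX against 78.7 to 80.7 in the other cIDR libraries (ratio 0.834). The FL library held 74.2 CPM of MLX against 94.2 to 97.3 in the other FL libraries (ratio 0.867).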

How the results depend on the processing

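No network gene was called in a group comparison under any alternative run, including, added after seeing the data, the block with each library left out. In batch 2, 6 members were called under every left-out library and with DESeq2, other size factors and no filter; MYC, MXI1, MLX and MGA kept direction and call under all 20 alternatives each, MXI1 between 0.57 and 0.74 and MYC between −3.38 and −0.93, the latter on log2(TPM + 1), which understates low genes. With the replicate block the number of all genes called in FL, NCTAD and cIDR against WT went from 2, 5 and 2 to 20, 89 and 95, cIDR against FL from 0 to 6 and cIDR against NCTAD from 0 to 1. Without batch 2 it was 10, 39 and 33 against WT and 5 for cIDR against FL; with the block as well it was 16, 62 and 46 against WT, 5 for NCTAD against FL and 10 for cIDR against FL. DESeq2 gave 11, 17 and 8 against WT, 2 for NCTAD against FL and 3 for cIDR against NCTAD. Limma on log2(TPM + 1) gave 1 for NCTAD against WT, and 2697, 1336 and 1165 genes and 2, 1 and 1 members in batches 1, 3 and 4. Leaving out each library gave 2 to 4 genes for NCTAD against WT, 3097 to 5148 in batch 1, 1493 to 4029 in batch 3 and 1499 to 3514 in batch 4. The count for all genes was lowest without NCTAD replicate 1 (batch 1), without replicate 3 of FL, NCTAD or cIDR (batch 3) and without replicate 4 of NCTAD or cIDR (batch 4). The members called then numbered 2 to 6 in batch 3 and 1 to 4 in batch 4. The block changed no call of a member.

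Uncalled fold changes near 0 changed sign. On log2(TPM + 1), against WT, MAX gave 0.0050 in FL, −0.0036 in NCTAD and −0.042 in cIDR, MXI1 −0.062 in FL and −0.10 in NCTAD, and MYCN −0.048 in cIDR; MNT in batch 2 gave −0.030. Without batch 2, MXI1 in FL was −0.043 (−0.039 with the block) and MYCN in cIDR −0.0049 (−0.0068 with the block). Over left-out libraries, MYCN ran from −0.089 to 0.054 in FL, −0.090 to 0.069 in NCTAD and −0.067 to 0.091 in cIDR; MAX from −0.066 to 0.045 in FL and −0.032 to 0.076 in NCTAD; MXI1 from −0.18 to 0.19 in FL, −0.10 to 0.19 in NCTAD and −0.010 to 0.38 in cIDR. The cause was not tested. MYC in batch 2 rests on 5 to 15 counts a library, which limits the precision of its fold change.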
